A study of Mus musculus with 14 samples.

Results

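Cyp11a1, Akr1c18, Star, Stard3, Fdx1 and Fdxr carry out or feed the first steps of steroid hormone synthesis, and they are described here in cultured mouse Th2 cells and their Th1 counterparts. All probe sets annotated to these 6 genes were taken. There were 9 probe sets for 5 of the genes, out of 45101 probe sets and 18194 genes on the array: 3 for Cyp11a1, 3 for Star, and 1 each for Akr1c18, Stard3 and Fdx1. Fdxr was not analysed here. Of the 9 probe sets, 7 exceeded the array median in at least 2 of the 14 arrays and entered the tests. The other 2, 1457604_x_at for Cyp11a1 and 1449201_at for Star, are described by level. The genes were chosen by their measured difference between Th2 and Th1 cells on these arrays, so that contrast is described and not tested.

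Steroid hormones are built from cholesterol. Star carries cholesterol from the outer to the inner mitochondrial membrane, and Stard3, a late endosomal protein with a related lipid-binding domain, moves cholesterol between membranes. Cyp11a1, a cytochrome P450 of the inner mitochondrial membrane, cleaves the cholesterol side chain to give pregnenolone, using electrons that pass from NADPH through the reductase Fdxr and the iron-sulphur protein Fdx1. Hsd3b enzymes turn pregnenolone into progesterone, and Akr1c18 inactivates progesterone as a 20-alpha-hydroxysteroid dehydrogenase. These genes are best known from the adrenal cortex, gonads and placenta, and Cyp11a1 has also been described in mouse Th2 cells.

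The study inhibited Trpm4, a calcium-activated cation channel, in T cells that had been polarised to Th2 or Th1, and measured total RNA on Affymetrix arrays. There was 1 array for each of 14 conditions, which are 7 treatments in Th2 cells and the same 7 in Th1 cells. The treatments were a retrovirus with dominant negative (DN) Trpm4 and the empty vector, each at 12 h and at 4 h of stimulation, Trpm4 siRNA, siRNA to Thy1 (a T cell surface protein), and no treatment. The labels give a stimulation time for the retrovirus arrays and none for the siRNA and untreated arrays, and they name no strain, animal or culture. Arrays matched by treatment or cell type stand in for replicates, so p-values measure only the spread between these arrays, and with so few arrays the precision is limited.

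The cell labels were set against marker genes. The Th2 genes Il4, Il5, Il13 and Gata3 were higher in Th2 cells in 7 of 7 matched pairs and Ifng, the Th1 cytokine, in 0 of 7, whereas Tbx21, a Th1 transcription factor, was higher in Th2 cells in 3 of 7. Of the other listed Th2 markers, Ccr8 and Il10 were higher in Th2 cells in 7 of 7 pairs and Il24 in 3 of 7. Of the other Th1 markers, Il12rb2, Il18r1 and Hopx were higher in Th2 cells in 0 of 7 pairs, Il18rap in 2, Cxcr3 in 4 and Cxcr6 in 6. Thy1 had a signal of 936.8 with Thy1 siRNA against 4362.2 with Trpm4 siRNA in Th2 cells, and 2734.5 against 7254.3 in Th1 cells. Trpm4 had a signal of 84.5 with Trpm4 siRNA against 133.4 with Thy1 siRNA in Th2 cells, and 58.4 against 100.3 in Th1 cells, beside 160.7 and 76.4 in the untreated cells of these types. With DN Trpm4 its signal was 129.1 at 12 h and 127.9 at 4 h in Th2 cells, against 135.4 and 117.0 with the vector, and in Th1 cells it was 515.6 and 119.2, against 75.3 and 70.5. Whether this probe set reads the DN construct is not stated in the labels. The arrays fell into 2 kinds by the control probe sets at the ends of Gapdh. In the Th2 retrovirus arrays and the Th1 retrovirus arrays at 4 h (6 arrays) the 3′ minus 5′ difference was 5.64 to 6.07 log2, and in the other 8 arrays it was -0.36 to 0.06. Comparisons of 12 h with 4 h in Th1 cells, and of Th2 with Th1 cells at 12 h, therefore run across both kinds of array. The Th2 time comparison and the siRNA comparisons each run within 1 kind. Each single Trpm4 pair is of 1 kind, but the Trpm4 fits pool pairs of both kinds.

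The start regions of Cyp11a1, Akr1c18 and Fdx1 are shown because the results turn on these members. Each is the 300 bases from 250 before to 50 after an annotated start, read 5′ to 3′ on the strand of the gene, from RefSeq on GRCm38 (5 of the 6 members matched, with 6 starts). Capitals mark the motifs searched on both strands: the nuclear receptor half-site AGGTCA, the cAMP response element TGACGTCA, the GATA site AGATAA, the NFAT core GGAAA, the STAT6 site TTCNNNNGAA, the Sp1 box GGGCGG and the TATA box TATAAA. Cyp11a1 lies on chromosome 9 from 57998024 to 58027031, Akr1c18 on chromosome 13 from 4132615 to 4150646, and Fdx1 on chromosome 9 from 51943023 to 51963602.
Cyp11a1, outer start (chr9:57997774-57998073, plus strand): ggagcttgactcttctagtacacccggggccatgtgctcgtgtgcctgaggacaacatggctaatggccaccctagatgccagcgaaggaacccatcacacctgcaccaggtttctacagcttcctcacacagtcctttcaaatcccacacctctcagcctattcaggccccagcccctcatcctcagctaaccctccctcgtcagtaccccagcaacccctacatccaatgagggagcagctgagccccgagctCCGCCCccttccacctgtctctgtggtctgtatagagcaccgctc
Cyp11a1, start inside the gene (chr9:58014702-58015001, plus strand): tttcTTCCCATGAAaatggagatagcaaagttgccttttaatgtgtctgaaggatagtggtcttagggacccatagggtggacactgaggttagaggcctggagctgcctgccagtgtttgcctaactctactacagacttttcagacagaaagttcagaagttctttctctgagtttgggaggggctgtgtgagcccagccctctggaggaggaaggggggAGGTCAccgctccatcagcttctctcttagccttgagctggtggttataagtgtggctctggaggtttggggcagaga
Akr1c18 (chr13:4150597-4150896, minus strand): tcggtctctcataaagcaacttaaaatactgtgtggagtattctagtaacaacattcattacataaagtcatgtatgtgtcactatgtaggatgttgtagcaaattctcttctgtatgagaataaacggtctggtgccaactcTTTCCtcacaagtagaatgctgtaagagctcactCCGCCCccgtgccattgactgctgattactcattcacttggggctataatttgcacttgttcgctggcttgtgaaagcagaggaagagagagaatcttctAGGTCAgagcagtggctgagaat
Fdx1 (chr9:51963553-51963852, minus strand): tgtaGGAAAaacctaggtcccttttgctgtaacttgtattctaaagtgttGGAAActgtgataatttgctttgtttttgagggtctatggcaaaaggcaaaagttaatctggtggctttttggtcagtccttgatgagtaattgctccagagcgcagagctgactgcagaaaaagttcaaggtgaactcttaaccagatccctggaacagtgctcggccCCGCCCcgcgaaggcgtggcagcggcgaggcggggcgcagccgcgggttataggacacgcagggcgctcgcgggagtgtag

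At the outer start of Cyp11a1 the search found 1 Sp1 box, read on the other strand. At the start inside the gene it found a nuclear receptor half-site 28 bases before the start and a STAT6 site 246 bases before it. The Akr1c18 region held a half-site 28 bases after the start, an NFAT core 107 bases before it and an Sp1 box 73 bases before it. The Fdx1 region held 2 NFAT cores and 1 Sp1 box. Among 32851 promoters of the same length, 16.3% held the half-site, 6.95% the STAT6 site, 61.3% the NFAT core and 35.7% the Sp1 box. The cAMP response element (1.79% of promoters), the GATA site (11.2%) and the TATA box (13.6%) were not among the letters of these 4 windows. A match describes letters only.

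Cyp11a1, the side-chain cleavage enzyme, had its signal in Th2 cells and little in Th1 cells. On probe set 1448804_at the deposited signal in Th2 cells had a lowest value of 1328.8, a median of 3462.2 and a highest of 6303.5, against 6.4, 12.8 and 36.0 in Th1 cells. No Th1 array reached any Th2 array. The log2 difference, computed on log2 of the normalised signal plus 16, which understates differences at low signal, was 6.69 ± 0.47 (SD over 7 pairs) and ran from 5.93 to 7.29 over the pairs. Over the 5 pairs whose arrays were of 1 kind it was 6.47. The lowest Th2 array was the untreated one, and the 2 highest were the siRNA arrays. In bulk RNA, fewer cells with a transcript and less transcript per cell cannot be told apart.

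The second Cyp11a1 probe set, 1439947_at, disagreed in size. Its signal was 155.8, 442.8 and 664.8 (lowest, median, highest) in Th2 cells, against 5.4, 118.7 and 321.7 in Th1 cells. The Th2 array was higher in 7 of 7 pairs, by 1.98 ± 0.73 log2 (SD), but the ranges of the cell types overlapped. In Th1 cells its 4 highest arrays were the retrovirus arrays, and 2 of these, at 4 h, were of the 3′-biased kind. The remaining probe set, 1457604_x_at, stayed at 1.9 to 10.2 in Th2 cells and at 1.6 to 5.5 in Th1 cells, below the median of every array.

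Akr1c18, which inactivates progesterone, was higher in Th2 cells in 7 of 7 pairs, by 3.32 ± 1.74 log2 (SD), and by 3.52 over the 5 pairs of 1 kind of array. Its signal was 1053.9, 3934.4 and 7145.6 (lowest, median, highest) in Th2 cells, against 21.5, 696.5 and 2986.2 in Th1 cells. Unlike the first Cyp11a1 probe set, its ranges overlapped, because the Th1 siRNA arrays exceeded the Th2 arrays at 4 h and without treatment. The ratio of deposited signals, Th2 over Th1, was 68.6 without treatment and 50.7 for the vector at 4 h, but 2.32 with Trpm4 siRNA and 2.51 with Thy1 siRNA. Akr1c18 belongs to a family of closely related genes, and whether its probes also bind the related transcripts was not tested.

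Fdx1, the electron carrier for Cyp11a1, was present in both cell types. Its signal was 421.7, 980.1 and 1406.4 (lowest, median, highest) in Th2 cells, against 280.4, 588.6 and 842.0 in Th1 cells, and the ranges overlapped. The log2 difference was 0.67 ± 0.70 (SD) and positive in 5 of 7 pairs. It was -0.24 with Trpm4 siRNA and -0.01 with Thy1 siRNA, where the ratio of deposited signals, Th2 over Th1, was 0.894 and 1.1. In the 5 pairs whose arrays were of 1 kind its mean was 0.32.

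The cholesterol carriers overlapped between the cell types over the 14 arrays. Stard3 had a signal of 163.2 to 302.9 in Th2 cells against 85.0 to 245.5 in Th1 cells, with a log2 difference of 0.33 ± 0.47 (SD) that was positive in 4 of 7 pairs. The Stard3 pairs were split by treatment after their values were seen. Pairs with Trpm4 siRNA, Thy1 siRNA and no treatment differed by 0.88, 0.95 and 0.57 log2. The 4 retrovirus pairs lay between -0.19 and 0.13, and those at 12 h run across both kinds of array. Whether the Stard3 difference depends on treatment was not tested. Star had low signals: 1418728_at read 5.7 to 44.4 in Th2 cells against 7.4 to 32.6 in Th1 cells, and 1418729_at read 11.6 to 78.1 against 13.2 to 84.7. The remaining probe set, 1449201_at, read 3.0 to 11.1 in Th2 cells against 3.5 to 12.7 in Th1 cells and was above the median of no array. The 2 tested Star probe sets ran opposite ways across the treatments: 1418729_at was higher in the siRNA and untreated arrays than in the retrovirus arrays of both cell types, and 1418728_at was lower there.

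Over the 7 tested probe sets, 3 were higher in Th2 cells in all 7 pairs, which 8.12% of all 29467 tested probe sets also were, and 1 had all Th2 arrays above all Th1 arrays, as did 1.49%. The genes were chosen with this contrast known, so these counts are no test of it. With 1 array per condition there is no spread by which neighbouring treatments could be ordered.

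**Figure D1:**
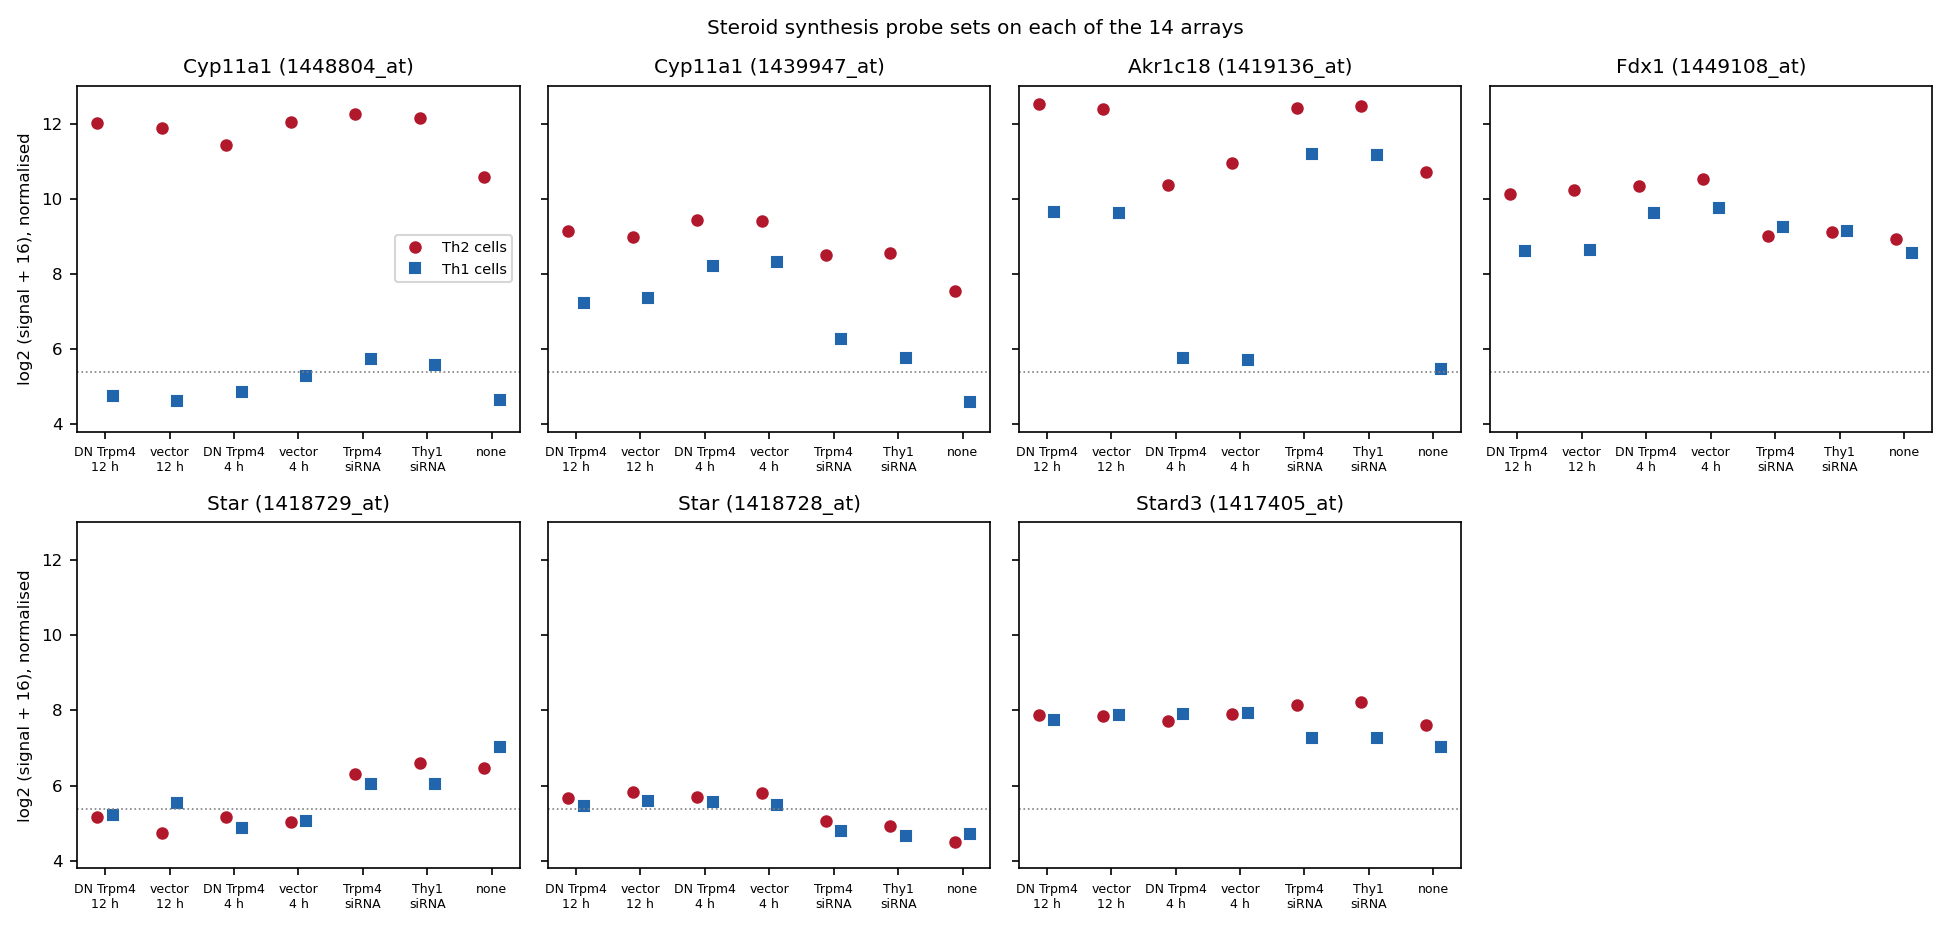
Normalised log2 signal (vertical axis, log2 of signal plus 16) of the 7 tested probe sets on each array, with the treatments along the horizontal axis, Th2 cells as red circles, Th1 cells as blue squares and the array median of 5.39 as a dotted line. Cyp11a1 on 1448804_at lies between 10.59 and 12.25 in Th2 cells and between 4.63 and 5.73 in Th1 cells. The Akr1c18 points of the cell types are close together with siRNA and far apart without treatment.

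**Figure D2:**
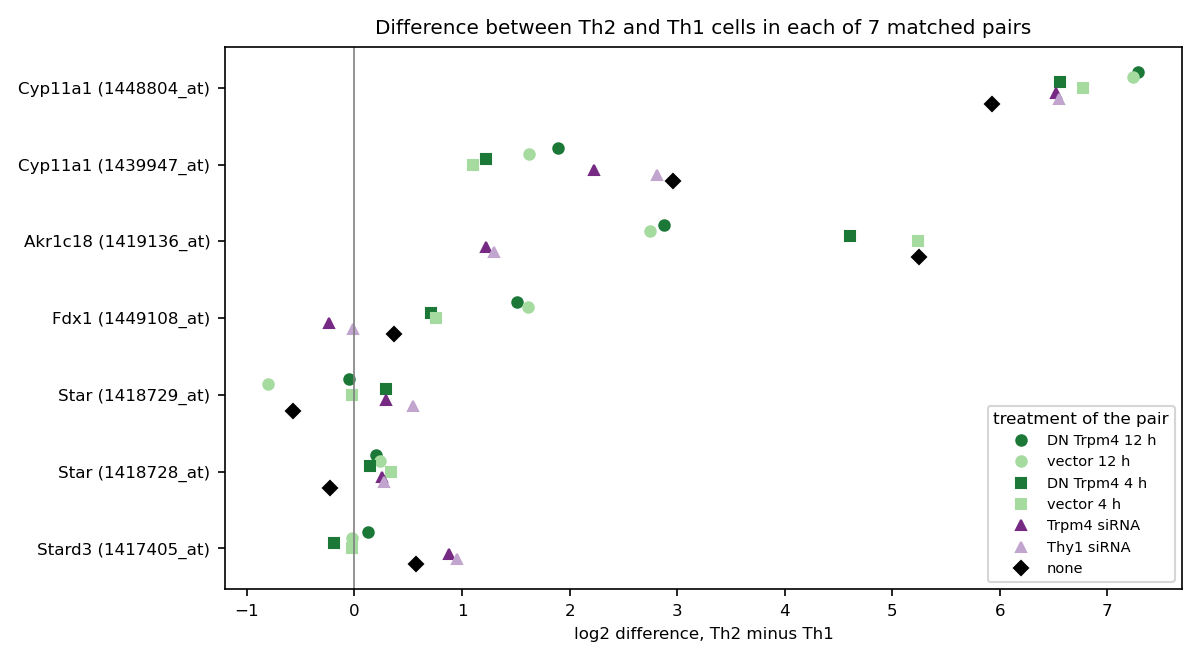
Log2 difference, Th2 minus Th1 (horizontal axis), of each tested probe set in the 7 matched pairs, with 1 symbol per treatment. Cyp11a1 on 1448804_at lies between 5.93 and 7.29 in every pair, Akr1c18 runs from 1.22 to 5.25, and Fdx1, Stard3 and both tested Star probe sets lie on both sides of 0.

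Markers of other cells that could carry steroid or granule genes were read beside these levels. Of 12 mast cell and basophil markers, 11 had a probe set, with a summed signal of 193.8 to 448.4 in Th2 cells against 171.7 to 266.3 in Th1 cells, and 2 to 6 of them against 1 to 3 of them above the array median. The mast cell protease Cpa3 was the 1 mast cell marker higher in Th2 cells in 7 of 7 pairs, at 5.83 to 7.53 log2 in Th2 cells against 5.78 to 6.25 in Th1 cells. The other 10 were higher in Th2 cells in 2 to 5 pairs. Mcpt1, Mcpt2, Mcpt4, Mcpt8, Ms4a2 and Kit did not pass the filter on low signal. Of 9 markers of adrenal and gonad cells, 7 had a probe set, with a summed signal of 127.1 to 326.0 against 135.1 to 284.0. Cyp21a1 was the 1 of these higher in Th2 cells in 7 of 7 pairs, and the other 6 were higher in 1 or 2 pairs. The sums for macrophages and dendritic cells were 228.4 to 512.2 against 163.5 to 381.0, and for B cells 120.0 to 267.9 against 112.0 to 230.2. Adgre1 and Itgax of the macrophage list were higher in Th2 cells in 6 of 7 pairs, and Cd68 and Lyz2 in 5. Csf1r and Fcgr1 were higher there in 4 pairs and Cd14 in 3. Of the B cell list, Cd79a, Cd79b, Ms4a1 and Blk were higher in Th2 cells in 4 pairs and Pax5 in 1. No marker in these lists was at 0, since the arrays list a background signal for every probe set. T cell markers summed to 3950.0 to 14376.3 in Th2 cells and 4380.3 to 14157.6 in Th1 cells. The part of other cells in the levels of Cyp11a1 and Akr1c18 was not tested.

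At 12 h of stimulation, against 4 h, Akr1c18 rose in Th2 cells and Cyp11a1 did not pass the test. Akr1c18 had a signal of 4871.4 with DN Trpm4 and 3934.4 with the vector at 12 h, against 1053.9 and 1894.5 at 4 h. Both 12 h arrays were above both 4 h arrays. The log2 difference was 1.80 ± 0.18 (SE, 2 pairs; 2.16 with DN Trpm4 and 1.44 with the vector), with an adjusted p of 0.00175 (limma, Benjamini-Hochberg over all tested probe sets). With a pseudocount of 1 in place of 16 the difference was 1.81 and the adjusted p 0.0557, which misses the threshold. It was the only 1 of 7 member probe sets called, where 10.1% of all tested probe sets were called in either direction, 4.51% as higher and 5.57% as lower.

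Cyp11a1 on 1448804_at had a signal of 3462.2 with DN Trpm4 and 2907.7 with the vector at 12 h, against 2151.8 and 3884.3 at 4 h. The constructs went opposite ways, by 0.60 and -0.17 log2, and the 95% interval of the mean ran from -0.26 to 0.69 (limma adjusted p = 0.579). On 1439947_at the difference was -0.36 ± 0.14 log2 (SE, adjusted p = 0.137). Fdx1 was at 980.1 and 1005.9 at 12 h against 1041.5 and 1406.4 at 4 h, a difference of -0.25 log2 (limma adjusted p = 0.304). The 2 Star probe sets and Stard3 differed by -0.14 to 0.05 log2, with limma adjusted p from 0.617 to 0.963.

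In Th1 cells the same interval compares even arrays at 12 h with 3′-biased arrays at 4 h, so time and the kind of array cannot be told apart there, and 56.1% of all tested probe sets were called. Akr1c18 had a signal of 712.9 with DN Trpm4 and 696.5 with the vector at 12 h, against 40.3 and 37.3 at 4 h, a rise of 3.91 ± 0.18 log2 (SE, limma adjusted p = 1.82e-06). Fdx1 fell to 330.6 and 339.1 at 12 h, against 783.4 and 842.0 at 4 h, a difference of -1.07 ± 0.14 log2 (SE, adjusted p = 0.000209). Cyp11a1 on 1439947_at fell by 0.95 ± 0.14 log2 (adjusted p = 0.000401), and on 1448804_at, near the floor in these cells, it differed by -0.38 (adjusted p = 0.151). Star on 1418729_at was higher by 0.42 ± 0.14 log2 (adjusted p = 0.0338), a call that was lost without either pair (adjusted p 0.340 and 0.173) and in which 3 of the 4 arrays were under the array median. In all, 2 of the 7 probe sets were called higher and 2 lower, where 27% and 29.1% of all tested probe sets were.

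The time effect in Th2 cells was set against that in Th1 cells, a comparison in which 38.2% of all tested probe sets were called (20.1% higher, 18.1% lower). For Akr1c18 the Th2 effect minus the Th1 effect was -2.11 ± 0.26 log2 (SE, limma adjusted p = 0.000527), a smaller gain by 12 h in Th2 cells on the log2 scale only. In deposited signal the gain was larger in Th2 cells. There Akr1c18 went from 1053.9 to 4871.4 with DN Trpm4 and from 1894.5 to 3934.4 with the vector. In Th1 cells it went from 40.3 to 712.9 and from 37.3 to 696.5, starting near the array medians of 26.69 and 26.54. For Fdx1 the Th2 effect minus the Th1 effect was 0.82 ± 0.19 log2 (adjusted p = 0.0102) and for Cyp11a1 on 1439947_at 0.59 ± 0.19 (adjusted p = 0.0388). Without 1 of the Th1 pairs these last 2 calls were lost (limma adjusted p 0.0714 to 0.107 for Fdx1, and 0.204 to 0.232 for Cyp11a1), and that of Cyp11a1 also without the Th2 DN Trpm4 pair (0.0570). The difference between the kinds of array in Th1 cells is part of this comparison, and its share was not tested.

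With Trpm4 inhibited, the question of the study, 0 of the 7 member probe sets passed the test in Th2 cells and 0 in Th1 cells, where 0% of the 29467 tested probe sets were called in either (limma, unadjusted p under 0.05 for 1824 and 928 of them). In Th2 cells Cyp11a1 on 1448804_at had a signal of 3462.2 with DN Trpm4 against 2907.7 with the vector at 12 h. At 4 h it had 2151.8 with DN Trpm4 against 3884.3 with the vector, and 6303.5 with Trpm4 siRNA against 5863.3 with Thy1 siRNA. The pair at 4 h differed by -0.63 log2 and the others by 0.15 and 0.11, and the mean was -0.12, with a 95% interval from -0.49 to 0.25 (limma adjusted p = 0.926).

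Akr1c18 showed the same order of pairs in Th2 cells. It had a signal of 4871.4 with DN Trpm4 against 3934.4 with the vector at 12 h, 1053.9 against 1894.5 at 4 h, and 6935.8 with Trpm4 siRNA against 7145.6 with Thy1 siRNA. Its mean was -0.16 log2, with a 95% interval from -0.45 to 0.14 (limma adjusted p = 0.874). In Th1 cells its pairs differed by 0.02, 0.06 and 0.03 log2. Over all 7 probe sets the mean differences ran from -0.16 to 0.09 log2 in Th2 cells and from -0.18 to 0.09 in Th1 cells, and no difference between the cell types was called (limma, 0% of probe sets, 1032 with an unadjusted p under 0.05). These p-values do not show that Trpm4 inhibition left the genes alike: the intervals allow changes of the sizes given.

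Cyp11a1 and Akr1c18 were higher in cells given siRNA than in untreated cells of both types. The labels do not say what else differed between the siRNA and untreated cultures, so siRNA, its delivery and any stimulation cannot be told apart. Both siRNA arrays of a cell type share 1 untreated array, which has no spread of its own. Each SE and p therefore rests on the spread between Trpm4 siRNA and Thy1 siRNA arrays, pooled over both cell types. The limma fit draws this spread towards that of all tested probe sets. The untreated array is taken to vary as the siRNA arrays do. In Th2 cells 5 of the 7 probe sets were called higher and 0 lower, where 43.1% of all tested probe sets were called (22% higher, 21.1% lower). The count includes 1 Star probe set under the array median. Cyp11a1 on 1448804_at had a signal of 6303.5 with Trpm4 siRNA and 5863.3 with Thy1 siRNA against 1328.8 without treatment, a rise of 1.60 ± 0.13 log2 (SE, limma adjusted p = 0.00199). Its probe set 1439947_at read 404.5 and 401.5 against 155.8 and rose by 0.99 ± 0.23 log2 (SE, adjusted p = 0.0257).

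Akr1c18 in Th2 cells had a signal of 6935.8 with Trpm4 siRNA and 7145.6 with Thy1 siRNA against 1472.6 without treatment, a rise of 1.74 ± 0.11 log2 (SE, limma adjusted p = 0.00145). Stard3 rose by 0.58 ± 0.11 log2 (SE, adjusted p = 0.0154), and Star on 1418728_at read 18.6 and 16.4 against 5.7, a difference of 0.49 ± 0.13 (SE, adjusted p = 0.0377). These Star signals are all under the array median, and the probe set passed the filter through the retrovirus arrays, so that its call is not read as a change. Fdx1 had 614.5 and 645.0 against 421.7, a difference of 0.15 log2 with a 95% interval from -0.18 to 0.47 (limma adjusted p = 0.392). Without 1 of the Th2 siRNA arrays, the calls of Stard3, Star on 1418728_at and Cyp11a1 on 1439947_at were lost, and 2 were left.

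In Th1 cells Akr1c18 had the highest rise of the members. Its signal was 2986.2 with Trpm4 siRNA and 2850.9 with Thy1 siRNA against 21.5 without treatment, which are ratios of 139 and 133 between deposited signals and a rise of 5.73 ± 0.11 log2 (SE, limma adjusted p = 0.000255). Cyp11a1 on 1448804_at, near the floor in these cells, read 36.0 and 30.7, above the array median, against 6.4, under it. It rose by 1.0 ± 0.13 log2 (SE, adjusted p = 0.00314), which left it under every Th2 array. Its probe set 1439947_at rose by 1.42 ± 0.23 log2 (adjusted p = 0.00588) and Fdx1 by 0.64 ± 0.13 (adjusted p = 0.0109), and Star on 1418729_at fell to 48.4 and 46.6 with siRNA against 84.7 without it (-1.0 ± 0.15 log2, SE, adjusted p = 0.00532). So 4 of 7 were called higher and 1 lower, where 58.8% of all tested probe sets were called (32.7% higher, 26.1% lower). The difference of the siRNA effect between the cell types was not tested.

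**Figure D3:**
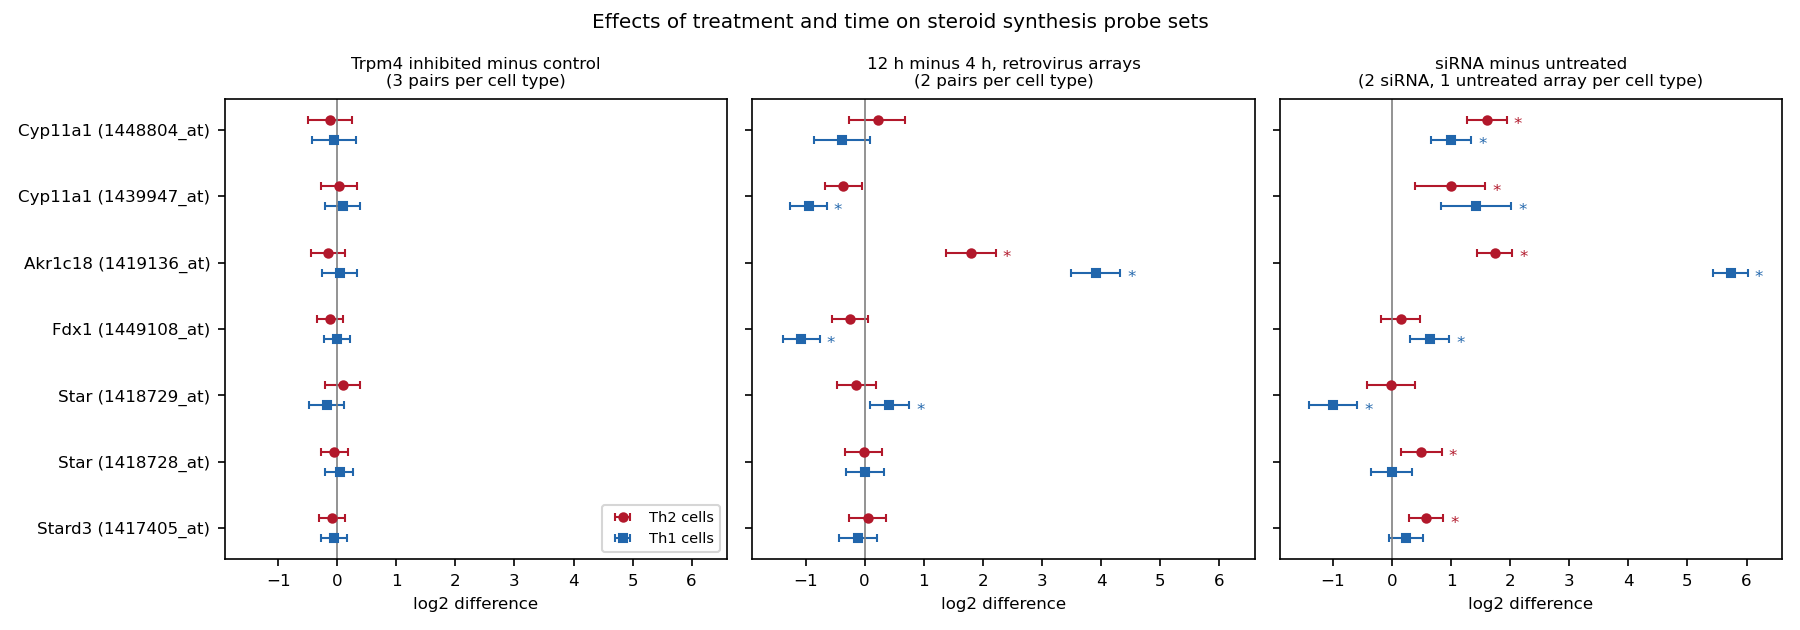
Fitted log2 difference of each tested probe set (horizontal axis) for Trpm4 inhibited minus control, 12 h minus 4 h and siRNA minus untreated, with Th2 cells as red circles and Th1 cells as blue squares. Bars are 95% intervals of the limma fit and an asterisk marks an adjusted p under 0.05. No asterisk stands in the Trpm4 panel, and Akr1c18 has the highest value in both cell types in the other panels, 1.80 and 3.91 for time and 1.74 and 5.73 for siRNA.

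The other genes of the pathway were read from 5 lists, each gene by its probe set with the highest mean. Of 27 genes for the later steps of steroid synthesis, 21 had a probe set and 9 entered the tests. Cyp17a1 and Cyp11b1, enzymes of androgen and of corticosteroid synthesis, did not, and nor did the regulator Nr5a1. Akr1c12, a relative of Akr1c18, averaged 9.76 ± 0.48 log2 in Th2 cells against 7.79 ± 0.95 in Th1 cells (SD over 7 arrays each) and was higher in Th2 cells in 7 of 7 pairs, as was Cyp21a1, the steroid 21-hydroxylase, with 6.21 ± 0.36 against 5.09 ± 0.53. Of the 9 tested genes, 2 were higher in Th2 cells in all 7 pairs and 0 lower (8.12% and 5.85% of all tested probe sets). Over the 9 genes the median Th2 minus Th1 difference was 0.75 log2 against -0.01 over all probe sets. Hsd3b1, which acts between Cyp11a1 and Akr1c18, averaged 4.59 ± 0.17 log2 in Th2 cells against 5.08 ± 0.44 in Th1 cells, close to the floor.

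With time in Th2 cells, 0 of these 9 genes rose and 2 fell, where 4.51% of all tested probe sets rose and 5.57% fell. Those that fell are Hsd11b1 (-0.99 ± 0.15 log2) and Hsd3b7 (-0.96 ± 0.15, SE, limma adjusted p 0.00653 and 0.00695). Hsd11b1 regenerates active glucocorticoid. Akr1c12 and Akr1c13 differed by 0.35 and 0.30 log2 (limma adjusted p 0.201 and 0.218), beside the 1.80 of Akr1c18. With siRNA in Th2 cells 1 rose (Hsd17b7, 0.91) and 3 fell (Hsd11b1, -2.88, Akr1c21, -0.72, and Hsd3b7, -0.49), where 22% of all tested probe sets rose and 21.1% fell. Akr1c12 and Akr1c13 differed there by -0.35 and -0.11 log2 (limma adjusted p 0.0725 and 0.535), and in Th1 cells they rose by 2.64 and 2.59 (limma adjusted p 0.000493 and 0.000529).

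Of 16 tested genes for cholesterol delivery, 2 were higher in Th2 cells in all 7 pairs and 2 were lower in all 7, where 8.12% and 5.85% of all tested probe sets were. Those higher are Npc2, which exports cholesterol from lysosomes (12.29 ± 0.52 log2 in Th2 cells against 11.02 ± 1.18 in Th1 cells), and Tspo, an outer mitochondrial membrane protein (9.77 ± 0.40 against 9.05 ± 0.72, SD). Those lower are Stard4, a cytosolic cholesterol carrier (8.20 ± 0.38 in Th2 cells against 8.98 ± 0.21 in Th1 cells), and the mitochondrial protein Atad3a (9.25 ± 0.81 against 9.86 ± 0.98). The median of the list was 0.01 log2. With time in Th2 cells, beside the same 4.51% and 5.57%, 1 rose, the lipoprotein receptor Scarb1 (0.69 ± 0.15, SE), and 2 fell, the cholesterol exporter Abca1 (-0.98 ± 0.16) and Tspo (-0.66 ± 0.14), with limma adjusted p from 0.00857 to 0.0225. With siRNA in Th2 cells, beside the same 22% and 21.1%, 2 rose, Atad3a (1.31) and Acbd3 (0.60), and 4 fell, among them Abca1 (-2.20) and Npc2 (-0.81).

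Of 15 tested regulators of steroid-making genes, the 3 nuclear receptors of the Nr4a family, immediate early genes of T cell stimulation, were called in Th2 cells both with time and with siRNA. With time in Th2 cells they were the 3 that fell (5.57% of all tested probe sets did), with differences of -1.98 ± 0.19 log2 for Nr4a3, -1.59 ± 0.16 for Nr4a1 and -1.19 ± 0.18 for Nr4a2 (SE, limma adjusted p from 0.00163 to 0.00695), and 0 rose. With siRNA in Th2 cells the same 3 rose, by 5.37, 1.81 and 3.60 log2 in that order (limma adjusted p 0.00057, 0.0019 and 0.001; 22% of all tested probe sets rose), and Creb1 fell by 0.66. Akr1c18 was higher at 12 h, where the Nr4a genes were lower, and higher with siRNA, where they were higher. A relation between Akr1c18 and the Nr4a genes was not tested. Between the cell types, 8.12% of all tested probe sets were higher in Th2 cells in all 7 pairs and 5.85% were lower. Of the regulators, 3 were higher in Th2 cells in all 7 pairs and 1 was lower in all 7. Those higher are Cebpb (8.82 ± 0.58 log2 in Th2 cells against 7.43 ± 0.83 in Th1 cells, SD), Prkaca (9.39 ± 0.22 against 8.64 ± 0.39) and Srebf1 (8.96 ± 0.46 against 8.64 ± 0.41). The lower one is Nr4a2 (8.20 ± 1.49 in Th2 cells against 9.18 ± 2.04 in Th1 cells).

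Of 2 tested genes among the mitochondrial P450s and electron carriers, 0 were called in Th2 cells, with time or with siRNA. Of all tested probe sets, 10.1% were called there with time and 43.1% with siRNA. Cyb5a was higher in Th2 cells in 7 of 7 pairs (10.95 ± 0.36 log2 against 10.15 ± 0.60 in Th1 cells, SD). Tested steroid receptors and genes that steroids induce numbered 10. Of these, 3 were higher in Th2 cells in all 7 pairs and 1 lower (8.12% and 5.85% of all tested probe sets). Those higher are the glucocorticoid receptor Nr3c1 (8.63 ± 0.25 log2 in Th2 cells against 7.58 ± 0.24 in Th1 cells, SD), Pgrmc1 (9.76 ± 0.43 against 9.36 ± 0.46) and Dusp1 (8.30 ± 0.37 against 7.54 ± 0.45). The lower one is Fkbp5 (8.66 ± 0.49 in Th2 cells against 9.24 ± 0.55 in Th1 cells). With time in Th2 cells 0 of the 10 rose and 1 fell, beside 4.51% and 5.57% of all tested probe sets. The 1 that fell is Dusp1 (-0.63 ± 0.14 log2, SE, limma adjusted p = 0.0254). With siRNA in Th2 cells 3 rose and 4 fell, beside 22% and 21.1% of all tested probe sets, with Klf9 at 2.08 and Fkbp5 at -1.09 log2, both genes that glucocorticoids induce. The median difference with time in Th2 cells was 0.18 log2 for the later steps, 0.07 for cholesterol delivery, -0.32 for the regulators and 0.05 for the receptors, against 0.01 over all probe sets. With siRNA in Th2 cells these medians were -0.14, -0.20, 0.06 and -0.22, against 0.02. With Trpm4 inhibited, 0 genes of these 5 lists were called in Th2 or Th1 cells, where 0% of all tested probe sets were.

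Genes whose pattern over the 14 arrays lay nearest to a member were found by the root mean square distance between log2 values, each centred on its own mean. For Cyp11a1 on 1448804_at, whose own spread about its mean was 3.38 log2, they were the Th2 cytokine Il4 at 0.79, the parathyroid hormone gene Pth at 0.81, the hypoxia-inducible factor Epas1 at 0.85, the Th2 cytokine Il5 at 1.0 and the chemokine Cxcl3 at 1.03. Akr1c18 lay at 2.37 and the other Cyp11a1 probe set at 2.58. The genes near Cyp11a1 varied in their level in untreated Th2 cells, where Cyp11a1 stood 2.17 log2 from its own mean. There Il4 stood -0.11 log2 from its own mean, against 4.66 and 4.63 with Trpm4 and Thy1 siRNA, and Pth stood at 3.17 against 2.29 and 2.41. On the same untreated array Epas1 stood at 2.79, Il5 at 0.14 and Cxcl3 at 0.71.

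For Akr1c18, whose own spread was 2.47 log2, the nearest were Stfa2l1 at 1.17, Shtn1 at 1.23, and Stfa3, Nucb2 and the cytokine Il6 at 1.33 each. Both Stfa genes encode stefins, which inhibit cysteine proteases. For Star on 1418729_at, whose own spread was 0.71 log2, the nearest were Gpaa1 at 0.17, Zfp386 and Ube2v1 at 0.19, and Nudt16 and Otud5 at 0.20, and the other tested Star probe set lay at 1.13. The points share arrays, treatments and the 2 kinds of array, so a small distance describes these 14 arrays only.

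**Figure D4:**
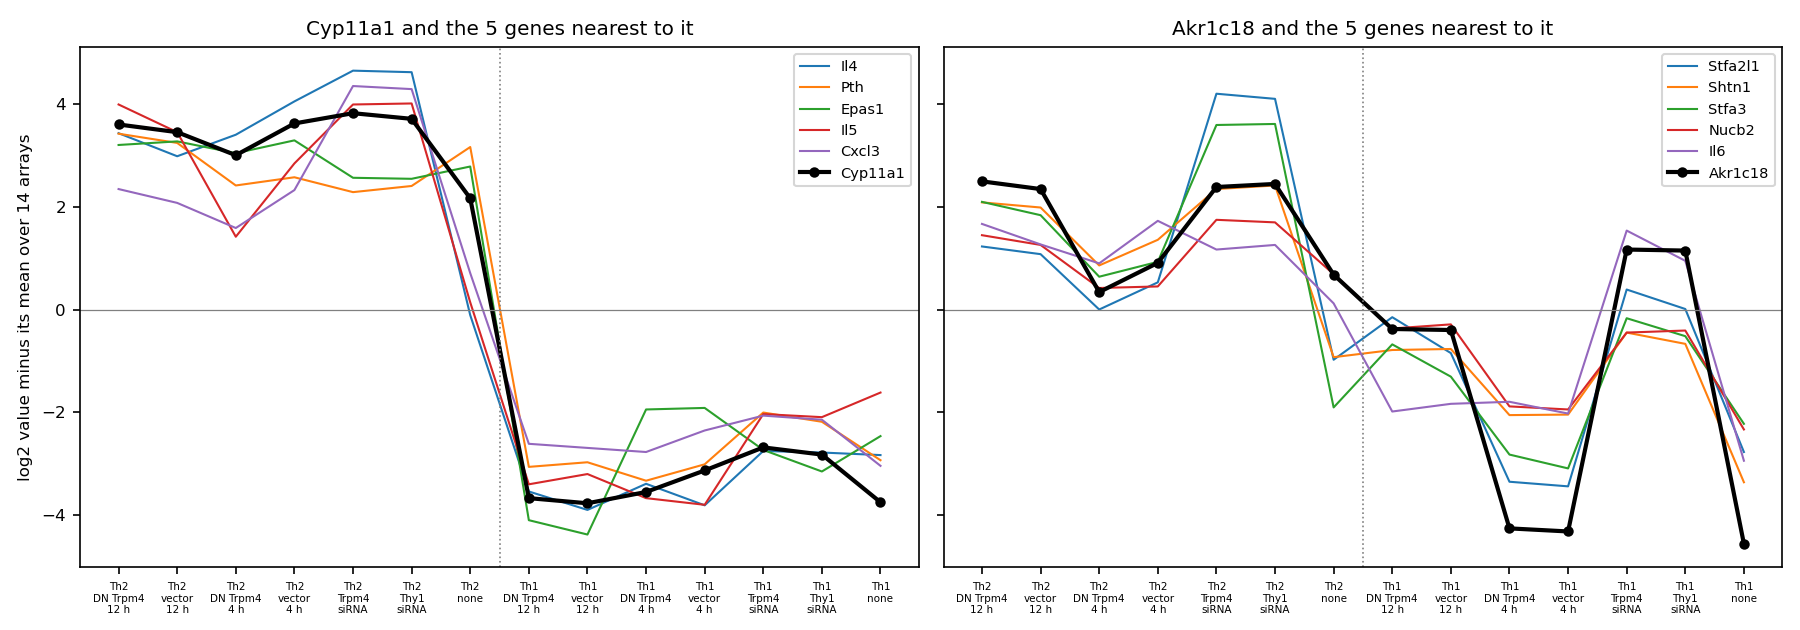
Log2 signal minus its mean over the 14 arrays (vertical axis) for Cyp11a1 and for Akr1c18 (black line with points) and the 5 genes nearest to each (coloured lines), with the Th2 arrays left of the dotted line and the Th1 arrays right of it. The lines join separate conditions only to guide the eye. The Il4 line drops to -0.11 on the untreated Th2 array, while the Pth line stands at 3.17 there.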

How the data were processed

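Trizol-extracted total RNA of polarised mouse T cells was biotin-labelled and hybridised by a standard Affymetrix protocol, per the labels. The authors deposited 1 signal per probe set, which is a linear intensity. Their summarisation and scaling are not given in these sources. Array totals were 7324678 to 10608719 and medians 19.88 to 28.3. Gene names came from the platform annotation, in which 34958 probe sets had 1 gene, 932 several and 9211 none. Tests excluded the 64 control probe sets.

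After quantile normalisation of all 14 arrays, 16 was added and log2 taken, which sets a floor of 4. Probe sets above the array median in at least 2 arrays (29467) were fitted in R 4.3.3 with limma 3.58.1 (lmFit, then eBayes), with matched pairs as a fixed block and 1 coefficient per cell type. For siRNA the block was the cell type. Residual degrees of freedom were 2 for time and siRNA and 4 for Trpm4. Tests were two-sided, with a threshold of 0.05 after Benjamini-Hochberg adjustment over all tested probe sets. The fits were tested on simulated data. Distances, motif searches and descriptions used Python 3.11.15 with pandas 2.3.3 and numpy 2.4.6.

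The members and gene lists were chosen with earlier results of these data known. Named genes were all member probe sets, the 5 nearest genes for Cyp11a1, Akr1c18 and Star, up to 6 called list genes by size or otherwise up to 4 of the highest mean, and Il4, Il5, Il13, Gata3, Ifng, Tbx21, Trpm4 and Thy1. Hsd3b1, Akr1c12 and Akr1c13, genes without a tested probe set, genes higher or lower in all pairs, other marker genes and the split of the Stard3 pairs were named after their values were seen. Alternatives were other scalings, pseudocounts, filters and variance priors, no pair block, 1 probe set per gene, pairs of 1 kind of array, and leaving out pairs or arrays.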

Additional observations from a re-analysis of the deposited data

Results flagged for a closer look

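For 3 member probe sets the effect of time (12 h minus 4 h) differed between Th2 and Th1 cells in a test of that difference with limma. Akr1c18 had a Th2 effect minus Th1 effect of -2.11 log2 (adjusted p = 0.000527), from 1.80 in Th2 cells and 3.91 in Th1 cells. Fdx1 had 0.82 log2 (adjusted p = 0.0102), from -0.25 in Th2 cells and -1.07 in Th1 cells. Cyp11a1 on 1439947_at had 0.59 log2 (adjusted p = 0.0388), from -0.36 in Th2 cells and -0.95 in Th1 cells. The same test called 38.2% of all probe sets, and the Th1 arrays at 12 h and at 4 h differ in their 3′ to 5′ signal ratio, whose part in these differences was not tested.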

How the results depend on the processing

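The Th2 minus Th1 difference of Cyp11a1 on 1448804_at, 6.69 log2 as reported, was 7.63 with a pseudocount of 1 and 5.42 with 64. The count of member probe sets called for time in Th2 cells, 1 as reported, was 0 with a pseudocount of 1 (Akr1c18 at 1.81 log2, adjusted p = 0.0557) and 2 with 64. For the difference of the time effect, 3 as reported, leaving out single pairs gave 1 to 4. For siRNA in Th2 cells, 5 as reported, it was 3 with 1 probe set per gene and 2 to 4 when single siRNA arrays were left out, where the lone array of an arm is assumed to vary like the others. Star on 1418728_at, called with siRNA in Th2 cells, also missed the threshold on median-centred arrays, without a filter, with a trended prior and with a pseudocount of 64 (adjusted p 0.0590 to 0.124). Without the pair block, Star on 1418729_at missed the threshold for time in Th1 cells (adjusted p = 0.0514), and with a pseudocount of 1 or no filter so did the time difference of Cyp11a1 on 1439947_at (0.0747 and 0.0588). For Trpm4 inhibition the count stayed at 0 under all 16 alternatives in each cell type. Of the values of single probe sets, 714 kept direction and side of the threshold, 25 lost the call, 5 gained it and 36 turned sign, none of which was called. The cause was not tested.

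With the deposited signal, Stard3 for time in Th2 cells turned to -0.062 log2, Star on 1418728_at to -0.066 for time in Th1 cells, 0.0074 for its difference and 0.20 for siRNA in Th1 cells, Fdx1 to 0.027 for Trpm4 in Th1 cells, Stard3 to 0.0081 for the Trpm4 difference and Star on 1418729_at to 0.084 for siRNA in Th2 cells. With median-centred arrays, Stard3 turned to -0.047 for time in Th2 cells, 0.010 for Trpm4 in Th2 cells and 0.029 for the Trpm4 difference, Star on 1418728_at to -0.0093 for time in Th1 cells, and Fdx1 to 0.018 for Trpm4 in Th1 cells. On the deposited scale the median of all tested probe sets stood at 0.22 log2 for siRNA in Th2 cells, against 0.02 after normalisation, at 0.38 in Th1 cells, against 0.09, and at -0.12 for time in Th1 cells, against -0.01. There Fdx1 in Th2 cells (0.56) and Stard3 in Th1 cells (0.61) passed the threshold.

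Leaving out single pairs or arrays turned the sign within these ranges. For time in Th2 cells they were -0.28 to 0.0041 for Star on 1418729_at, -0.040 to 0.011 on 1418728_at, -0.065 to 0.15 for Stard3 and -0.17 to 0.60 for Cyp11a1 on 1448804_at. For Star on 1418728_at they were -0.099 to 0.11 for time in Th1 cells and -0.12 to 0.085 for the difference. For Trpm4 in Th2 cells they were -0.13 to 0.012 for Star on 1418728_at, -0.069 to 0.28 on 1418729_at, -0.026 to 0.077 for Cyp11a1 on 1439947_at, -0.26 to 0.13 on 1448804_at and -0.31 to 0.050 for Akr1c18. For Trpm4 in Th1 cells they were -0.016 to 0.11 for Star on 1418728_at, -0.12 to 0.20 for Cyp11a1 on 1439947_at, -0.16 to 0.12 on 1448804_at and -0.073 to 0.050 for Fdx1. For the Trpm4 difference they were -0.17 to 0.14 for Cyp11a1 on 1439947_at, -0.25 to 0.19 on 1448804_at, -0.078 to 0.032 for Stard3 and -0.35 to 0.012 for Akr1c18. For siRNA they were -0.16 to 0.12 for Star on 1418729_at in Th2 cells and -0.072 to 0.065 on 1418728_at in Th1 cells. Signal over background limits Star and, in Th1 cells, Cyp11a1.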
